A study of Canis lupus familiaris with 33 samples.

Results

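The methylated regions of dog liver were described from the liver peak list of an MBD-seq series, set against the lists of 10 other beagle tissues (the 2 brain tissues cerebellum and cerebrum, the glands pancreas and mammary gland, the gut tissues stomach and colon, and kidney, lung, spleen and ovary). All peaks of the 11 lists on autosomes 1 to 38 were merged wherever they overlapped by at least 1 base, which gave 450785 union regions on the dog build CanFam3.1. The liver list held 294358 autosomal peaks of the 3158680 in all lists, and these fell in 261992 union regions (58.1%). Of these, 4500 had a peak in liver and in no other tissue (liver-only regions, 0.998% of all union regions), and 121527 had a peak in all 11 tissues (shared regions). A further 1914 regions had a peak in all tissues but liver (liver-lacking regions, 0.425% of all union regions).

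In MBD-seq, sheared genomic DNA is captured by a protein domain that binds methylated CpG sites, so a peak marks a stretch where CpG sites are dense enough and methylated enough to be pulled down. Most CpG sites of a mammalian genome are methylated in every tissue, and tissue differences lie mainly at regulatory sequence, where loss of methylation usually accompanies an active enhancer or promoter. Liver is mostly hepatocytes, the cells that make plasma proteins and bile acids and carry out much of the metabolism of the body, together with sinusoidal endothelium, resident macrophages, stellate cells and bile duct epithelium.

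The series measured healthy adult beagles, euthanized with alfaxalone and KCl and described by the labels as 1 male and 2 female dogs, with 2 MBD libraries and 1 input library per tissue. The liver MBD libraries came from 1 animal labelled female and 1 labelled male, and the liver input library carried the same animal name as the second but was labelled female. The titles of the series carry 4 animal names, which is more than the 3 dogs described. Cerebellum, cerebrum, lung and spleen used the same animal names for MBD and input libraries as liver, and kidney and pancreas the same for MBD but another for input. Colon, stomach, mammary gland and ovary each had 1 MBD library under an animal name that liver lacks, so tissue and animal cannot be told apart in comparisons with them. Fragments of about 300 bp were captured, and those eluted at 600 and 800 mM salt were sequenced, which favours densely methylated DNA. Both MBD libraries of a tissue share 1 peak list, so there is no spread within liver and the 11 tissues are the only units. Pieces of whole liver were used, so that a lower value in every cell and absence from a share of the cells cannot be told apart. No gene annotation of the build was used here, so regions are given by position, and the liver label could not be checked against marker genes.

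The strength of a region in a tissue is given as its relative fold, which is the authors' fold enrichment of the highest peak in the region divided by the median fold of all autosomal peaks of that list. In liver that median was 7.18, against 6.19 (lung) to 8.80 (stomach) in the others. A relative fold of 1 is thus a typical peak of its own list. The median liver peak was 309 bp wide, and liver peaks covered 168.159 Mb. The number of reads behind each list is unknown, and the 95% Wilson intervals below cover counting error only.

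Liver held 5.48% of the 82088 regions found in a single tissue (95% interval 5.33 to 5.64). The average over the 11 tissues, 9.09%, is carried by cerebellum and ovary, and the other 9 tissues, liver among them, lie below it. Liver held 36.9% of the regions found in 4 tissues, 63.5% of those in 6 and 95.2% of those in 10. The averages over the tissues are fixed by the number of tissues, at 36.4%, 54.5% and 90.9%, so the average list rises too. A single list can rise less. Cerebellum held 35014 of the 82088 regions of 1 tissue and lacked 13152 of the 39706 regions of 10. The strength of the liver peak rose with the number of tissues. Its median relative fold was 0.602 in liver-only regions, 0.674 in regions of 5 tissues, 0.988 in regions of 10 tissues and 1.52 in shared regions. Shared regions made up 46.4% of the regions with a liver peak, and liver-only regions 1.72%.

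Only cerebellum (35014) and ovary (26411) had more regions to themselves than liver. Kidney followed liver with 4079 and cerebrum with 3815, while pancreas, with 418, had the fewest. The longest lists were those of ovary (353642 autosomal peaks), cerebellum (340948), kidney (296906), cerebrum (296594) and liver (294358). Whether the order follows list length was not tested. With all lists limited to the 251352 peaks of highest fold, 3932 regions were liver-only. Regions absent from 1 tissue alone showed another order. The 1914 liver-lacking regions were close in number to those that only kidney (2002) or mammary gland (2059) lacked. Stomach (1414) and cerebrum (1428) had fewer, and cerebellum had the most (13152).

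**Figure D1:**
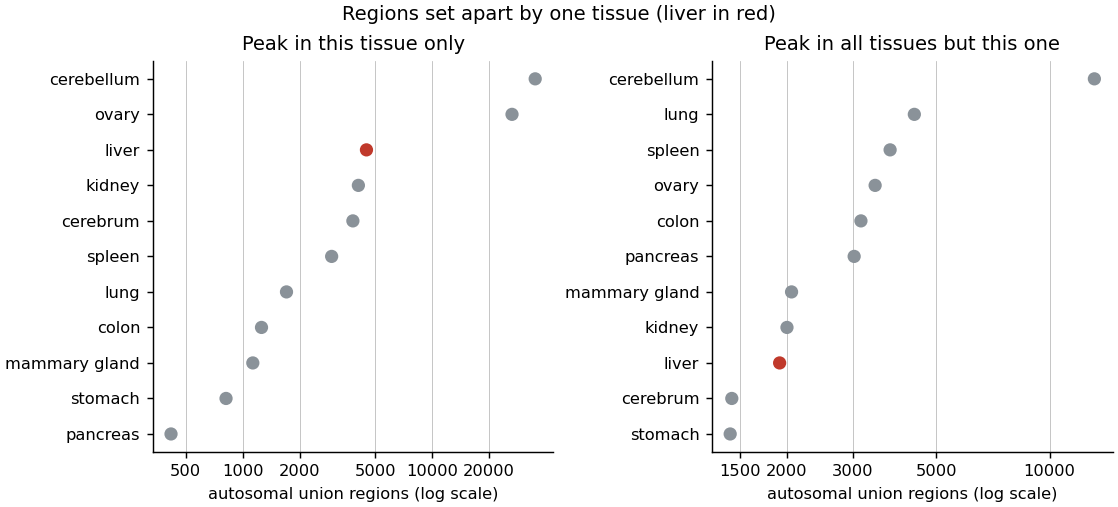
Autosomal union regions with a peak in a single tissue (left) and with a peak in all tissues but 1 (right), for each of the 11 tissues on log axes, with liver in red and 1 list per tissue. Liver had 4500 regions of its own, after cerebellum and ovary, and 1914 that it alone lacked, more than stomach and cerebrum.

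Most liver-only regions were short and weak. Their median width was 221 bp (10th to 90th percentile 189 to 306), against 309 bp for all liver peaks, and the longest measured 2193 bp. Shared regions had a median of 798 bp, but they merge peaks of 11 lists. Liver-only regions hold liver peaks alone, so part of that contrast follows from the merging. Only 183 of the 4500 (4.07%, interval 3.53 to 4.68) reached the strength of a typical liver peak, a relative fold of 1. Regions found only in another tissue were weak too, with median relative folds from 0.520 (stomach) to 0.670 (ovary), against 0.602 in liver. Of these, 118 of 1256 reached 1 in colon, 35 of 4079 in kidney and 21 of 3815 in cerebrum. Liver-only regions often lay close to a peak of another tissue, at a median distance of 706.5 bp. Distances to a peak, here and below, run to the edge of the union region that holds it. The peak itself can lie further away. The same distance ran from 689.5 bp in lung to 1511.5 bp in stomach for the regions found only in each of the other tissues. The shortest peak of a list bounds the widths from below, at 182 bp in liver and 175 (pancreas) to 218 bp (kidney and ovary) in the others. Neither the width (range over the other tissues 197 to 273 bp, p = 0.455) nor the distance (p = 0.182) set liver apart in an exact permutation test over the 11 tissues. In that test each tissue has a distance, in either direction, from the median of the other 10, and p is the share of the 11 tissues whose distance is at least that of liver. It is two-sided, its smallest possible p is 0.0909, and so it cannot reach 0.05. Over the 9 measures tested in this way the smallest Benjamini-Hochberg adjusted p was 0.682. With regions at least 1 kb from any peak of another tissue, 1760 liver-only regions were left, and with at least 5 kb, 281.

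The strongest liver-only region was chr1:18558389-18558970, 582 bp wide, with a fold of 15.1 (relative fold 2.10) and a −log10 p-value of 63.0. The nearest peak of another tissue lay 2720 bp away. The next 3 were chr5:41711876-41712266 (relative fold 2.04), chr26:14321690-14322068 (1.92) and chr26:36930391-36930731 (1.89), each under 400 bp wide. All of the 8 strongest exceeded the median liver strength of shared regions (1.52). Of the 8 strongest, the widest was chr20:57173608-57175116, with 1509 bp, a relative fold of 1.76 and no peak of another tissue within 13081 bp. The region chr17:19507665-19508813 was 1149 bp wide with a relative fold of 1.87, but a peak of another tissue lay 601 bp away. The last 2 of the 8 were chr23:30827493-30827830 (1.76) and chr5:81888084-81888891 (1.67).

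Some liver-only regions lay in clusters, defined as 3 or more regions of a class with gaps of at most 10 kb. There were 65 such clusters, which held 225 regions, or 5% of all liver-only regions. The corresponding percent ran from 0.353 in lung to 17.1 in cerebellum, with a median of 1.35 over the 10 other tissues. Liver was the third highest, behind cerebellum and ovary (9.81%) and just above colon (4.94%), and its distance from the median of the others did not stand apart (exact permutation p = 0.273). With gaps of up to 50 kb 24.8% of liver-only regions lay in clusters, and with equal lists 3.03%.

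The cluster with most regions was chr20:57170755-57178905, which held 6 liver-only regions in 8151 bp and no other union region. Its members were 206 to 1509 bp wide with relative folds from 0.608 to 1.76, and the 1509 bp region named above is among them. Across this interval, then, liver peaks covered 3562 bp where no other tissue had a peak at all. A cluster of 5 at chr27:2828912-2836529 spanned 7618 bp, with relative folds from 0.349 to 1.29 and 4 further union regions between its members, all of them with a liver peak. The 1 shared region among them had a log2 difference of −0.19. The cluster of 5 at chr5:15117593-15134707 spanned 17115 bp, held a member 1087 bp wide and reached a relative fold of 1.67. The 2 shared regions inside it had a median log2 difference of 0.45. The remaining clusters of 5 named by the same rule were chr20:39156176-39175995 (relative folds 0.525 to 1.04) and chr9:48426401-48450697 (0.313 to 0.858). The first held no shared region, and the 2 in the second had a median log2 difference of −0.06, so the shared regions within these clusters had no common sign.

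Liver-lacking regions, which merge peaks of 10 lists, were wider than liver-only regions, as lacking regions were in every other tissue. Their median width was 352 bp (10th to 90th percentile 312 to 671), and they were weaker in the other tissues than shared regions were. The median over the other 10 tissues was at least 1 in 642 of them (33.5%, interval 31.5 to 35.7). Liver had the lowest median width of lacking regions of all tissues (others 355 bp in colon to 554 bp in cerebellum). It lay close to the median of the others, 373.5 bp, and by its distance from that median it did not stand apart (exact permutation p = 0.455). With the upper 50% of each list it was 731 bp. The nearest liver peak lay at a median of 3133 bp, second only to colon (3191 bp) in the range that starts at 1179 bp in ovary (p = 0.273, exact permutation). Only 7 of the 1914 lay in clusters (0.366%, median of the other tissues 0.397%, exact permutation p = 1), and with gaps of up to 50 kb 2.72% did.

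Whether liver lacked a region followed the strength of that region elsewhere. Among the regions with a peak in all 10 other tissues, liver had none in 5.59% of the 22749 whose median relative fold in the others was 0.5 to 1. This fell to 1.49% of the 42293 at 1 to 1.5, and to 13 of 19721 (0.0659%, interval 0.0385 to 0.113) at 1.5 to 2. At 2 and above liver had a peak in all 38672 regions, which allows a share without liver of up to 0.00993% (upper Wilson bound). Cerebellum lacked 1.64% of its regions in that strongest class, and the median of the other tissues was 0.00257%. At the sensitivity of these lists, then, no region that was strongly enriched in the 10 other tissues went without a liver peak.

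The liver-lacking region strongest elsewhere was chr8:27742656-27743023, 368 bp wide. Its relative fold was 1.43 in cerebellum, 1.84 in cerebrum, 1.27 in colon, 1.93 in kidney, 1.5 in lung, 1.97 in mammary gland, 1.38 in ovary, 2.11 in pancreas, 1.80 in spleen and 2.09 in stomach. All 10 tissues were thus above the strength of their typical peak, while the nearest liver peak lay 47618 bp away. The region chr12:25227900-25228267 was similarly isolated, with the nearest liver peak at 42246 bp and relative folds of 0.918 (pancreas) to 2.09 (spleen) in the others. By contrast, chr24:28766496-28767487 was uneven among the tissues that had it, from 0.368 in spleen to 4.77 in mammary gland with a median of 1.67. At chr1:55104425-55104836, a liver peak lay 108 bp from the region, in which the others ranged from 1.16 to 2.45. The other 4 of the 8 strongest were chr8:4342198-4342579, chr17:21083440-21083826, chr23:45377833-45378316 and chr32:10625251-10625798, with medians of the others between 1.54 and 1.69.

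Both clusters of liver-lacking regions lay among shared regions that were low in liver as well. At chr6:39089111-39103553, 4 regions of 336 to 830 bp had no liver peak, and the 2 shared regions between them had a median log2 difference of −0.72. At chr2:47839311-47845303, 3 regions had none, and the 2 shared regions there had a median of −0.59.

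**Figure D2:**
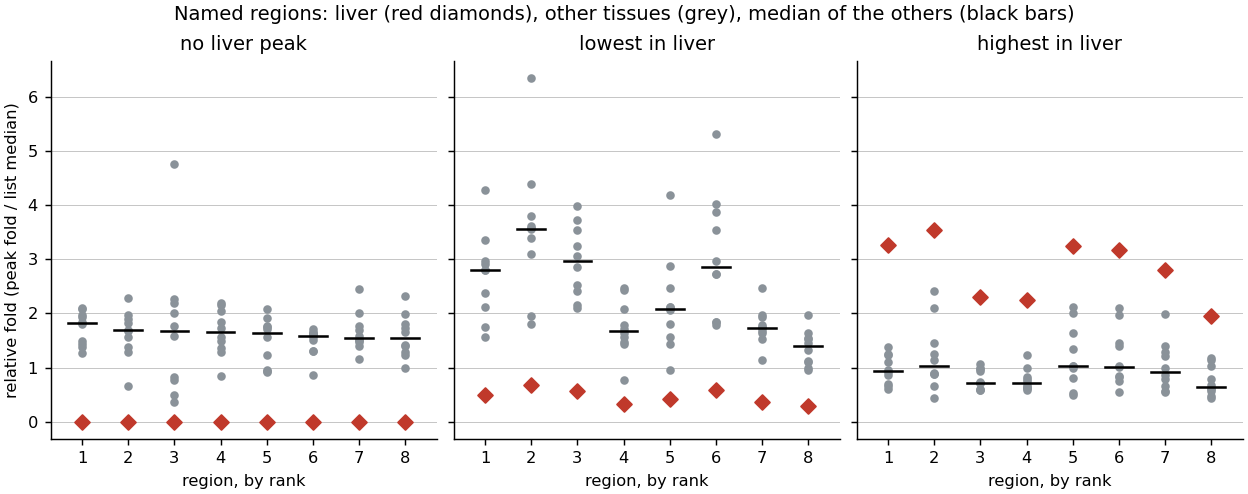
Relative fold (peak fold divided by the median fold of its list) in liver (red diamonds), in each of the other 10 tissues (grey points) and their median (black bars), for the 8 liver-lacking regions strongest elsewhere (left, liver drawn at 0 for no peak) and the 8 shared regions lowest (middle) and highest (right) in liver by log2 difference. In all 8 shared regions on the middle axes liver lies below every other tissue, and in all 8 on the right it is higher than every other tissue.

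In the 121527 shared regions liver differed little from the other tissues as a whole. The log2 difference, which is the log2 relative fold of liver minus the median of the other 10 tissues, had a median of −0.05 and quartiles of −0.36 and 0.25. It ranged from −2.51 to 1.81 and was below 0 in 54.8% of the regions. The sign of the median turned with the scale: on percentile ranks within each list it was 0.269 percentile points, while with equal lists the log2 median was −0.14 and with the upper 50% of each list −0.17. At least 2-fold lower in liver were 3391 regions (2.79% of those shared), and at least 2-fold higher 1126 (0.927%), or 3.01 lower for each higher region. The members nearest to the threshold had differences of −1.000064 and 1.000003, and the nearest regions outside it −0.999999 and 0.999772. Other tissues ranged from 0.464 lower per higher region in mammary gland to 27.5 in stomach. Liver was the lowest of all 11 tissues in 2815 of the lower regions (83.0%) and the highest in 1015 of the higher ones (90.1%), as a description only, since these regions were chosen for the liver value.

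The count of lower regions moved less with the lists used than that of higher ones. With all lists limited to the 251352 peaks of highest fold, 3109 were lower and 319 higher, and without cerebellum 3921 were lower and 1734 higher. With the upper 50% of each list by fold, 1562 were lower and 36 higher, and with regions counted only where peaks cover at least 50% of them, 2554 and 480.

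**Figure D3:**
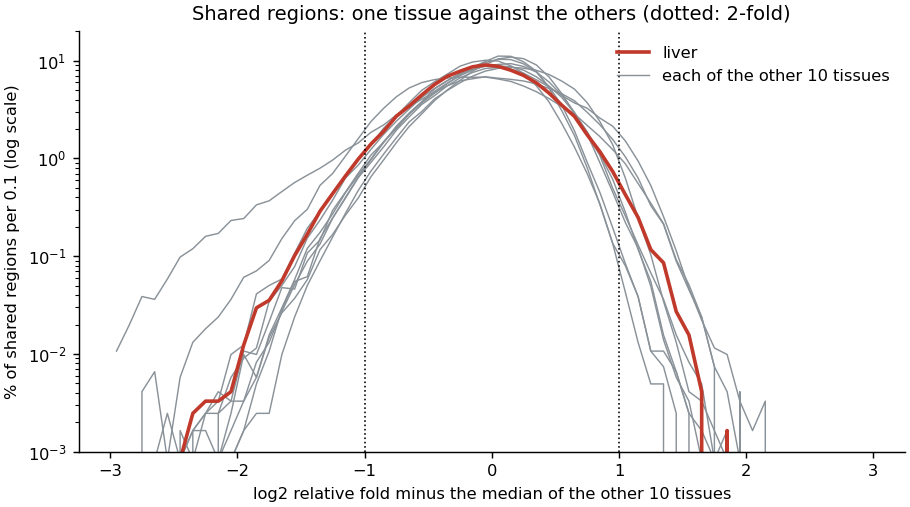
Distribution over the shared regions of the log2 relative fold of 1 tissue minus the median of the other 10, in bins of 0.1 and as percent of shared regions on a log axis, for liver (red) and each of the other tissues (grey), with dotted lines at 2-fold. The liver curve lies within the range of the other tissues on both sides, with 2.79% of its regions past the left line and 0.927% past the right one.

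The direction of the difference changed with how strong a region was elsewhere. With the shared regions split into quartiles by the median of the other tissues, the liver median of the log2 difference was 0.08 in the weakest quartile, 0.02 in the second and in the third, and −0.28 in the strongest, where the others lay between 2.29 and 5.83. The 2-fold lower regions rose along this order from 282 to 631, 765 and 1713, and the higher ones fell from 725 to 340, 61 and 0. The split uses the median that is also subtracted in the difference, and other tissues had such falls too. From the weakest to the strongest quartile, higher regions went from 2350 to 0 in cerebellum, from 2336 to 1 in ovary, from 478 to 0 in cerebrum and from 366 to 2 in kidney, but from 170 to 707 in lung and from 169 to 3119 in mammary gland. Lower regions went from 308 to 3963 in cerebellum and from 95 to 3495 in ovary, but from 390 to 98 in mammary gland. In the strongest quartile the median was lower still in ovary (−0.60) and cerebellum (−0.34) and near liver in cerebrum (−0.26), whereas it was 0.51 in mammary gland and 0.46 in lung.

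The lowest region in liver was chr38:21258845-21259903, 1059 bp wide, with a log2 difference of −2.51. Its relative fold was 0.491 in liver, 1.56 in ovary, 1.75 in cerebrum, 2.12 in spleen, 2.37 in colon, 2.80 in cerebellum, 2.80 in stomach, 2.92 in pancreas, 2.96 in kidney, 3.36 in mammary gland and 4.28 in lung. Liver was thus well below all the others, and yet its peak covered 93.4% of the region, so the difference was of height and not of width. Likewise low were chr23:44236979-44237735 (liver 0.672, others 1.80 to 6.35), chr9:11964015-11965207 (liver 0.574, others 2.11 to 3.99) and chr19:3198678-3199564 (liver 0.581, others 1.78 to 5.32). In others of the 8 lowest the liver peak was also narrow. It covered 29.5% of chr15:36163282-36164082 (liver 0.326, median of the others 1.68) and 26.4% of chr3:89019046-89020176 (0.287 against 1.39). The remaining 2 were chr26:30233685-30234679 (0.423 against 2.09) and chr28:8757818-8758483 (0.358 against 1.74).

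The highest region in liver was chr6:42656179-42656904, 726 bp wide, with a log2 difference of 1.81. Its relative fold was 3.27 in liver, and in the others 0.606 in cerebellum, 0.656 in cerebrum, 0.701 in mammary gland, 0.858 in spleen, 0.910 in stomach, 0.950 in pancreas, 1.10 in kidney, 1.24 in ovary, 1.25 in lung and 1.39 in colon. The liver peak covered the whole region, while the peaks of the others covered a median of 51.1%. The next highest were chr28:30962624-30964148 (liver 3.54, others 0.443 to 2.41), chr3:56803112-56804015 (2.30, others 0.578 to 1.07) and chr6:16260843-16262135 (2.25, others 0.581 to 1.23). Of the 8 highest, 3 lay on chromosome 3, at the position given and at chr3:74068278-74069498 (3.25) and chr3:62351324-62352772 (3.17). A further 3 lay on chromosome 6, the last of them at chr6:8390392-8390845 (2.80). The eighth was chr26:11861434-11862060 (1.95 against a median of 0.646).

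Regions 2-fold lower in liver were wider (median 957 bp) than those 2-fold higher (729.5 bp). Liver peaks covered a median of 74.0% of the width of the lower regions and 89.4% of the higher ones, against 78.8% of all shared regions. Lower regions formed 26 clusters with 85 members, and higher regions 4 clusters with 12. The largest of the first kind, chr4:29446048-29463207, held 5 lower regions of 1507 to 3041 bp, 11875 bp in sum, and the 7 shared regions in it had a median log2 difference of −1.03. In the tightest cluster of 4, at chr28:32155429-32160364, the 4 members were the only union regions in 4936 bp, with liver at 0.320 to 0.965 and medians of the others at 0.857 to 2.25. The clusters of higher regions were chr18:47067806-47074564 (median log2 difference of its shared regions 1.23), chr9:49322796-49336713 (1.16), chr6:15883390-15896019 (0.98) and chr6:5918006-5932309 (0.88), each with 3 members.

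Other tissues stood on the same side as liver in part of these regions, here read against their share of all shared regions. Among the 3391 lower regions, ovary was itself at least 1.5-fold below the median of the 10 tissues other than liver in 35.4% (19.1% of all shared regions), cerebrum in 19.2% (10.2%) and pancreas in 16.6% (11.4%). Cerebellum, with 20.1% (17.2%), kidney, with 8.40% (5.54%), and lung, with 8.11% (6.13%), were also over their share of all shared regions. Stomach, with 7.58% (7.80%), was near its share. Mammary gland, with 4.60% (7.18%), spleen, with 5.22% (8.05%), and colon, with 6.10% (7.85%), were under it. Among the 1126 higher regions, kidney was at least 1.5-fold above that median in 29.9% (5.16% of all shared regions), lung in 28.9% (10.4%), cerebrum in 17.8% (5.86%) and ovary in 17.1% (8.99%). Colon with 6.66% (2.26%), pancreas with 6.39% (1.92%), stomach with 4.35% (2.0%) and spleen with 8.61% (4.82%) were also over their share, at lower levels. Cerebellum had 11.3% in both, and mammary gland 4.71% against 12.5%. These shares were not tested, and the baseline was not matched for strength. The strongest quartile of the split above held 1713 of the lower regions. There the median log2 difference was −0.60 in ovary, −0.34 in cerebellum and −0.26 in cerebrum, but 0.51 in mammary gland and 0.46 in lung. The weakest quartile held 725 of the higher regions, and these medians were 0.30, 0.36, 0.22, −0.01 and 0.01 there. Of the 6250 regions found in liver and just 1 other tissue, 1518 were shared with ovary, 1011 with cerebellum and 906 with lung. As a share of all regions that the partner has with exactly 1 other tissue, lung came first with 24.3%, then colon with 21.2% and pancreas with 19.3%, and cerebellum was at 4.12%. Of the 3035 regions missing from liver and just 1 other tissue, lung was the partner in 646, or 11.8% of all such regions of lung.

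Shared regions near liver-only regions were slightly high in liver, and those near liver-lacking regions slightly low. Within 2 kb of a liver-only region, 2269 shared regions had a median log2 difference 0.13 above that of all shared regions. The excess was 0.10 at 2 to 10 kb (n = 6781), 0.07 at 10 to 50 kb (n = 22676) and −0.03 beyond (n = 89801). Around liver-lacking regions the values were −0.11 (n = 601), −0.06 (n = 2026), −0.02 (n = 8920) and 0.00366 (n = 109980). Every other tissue showed the same signs within 2 kb of its own regions, from 0.06 in kidney to 0.17 in cerebellum around only-regions and from −0.47 in cerebellum to −0.06 in colon around lacking regions. Liver did not stand apart in either (exact permutation p = 0.909 and p = 0.727).

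**Figure D4:**
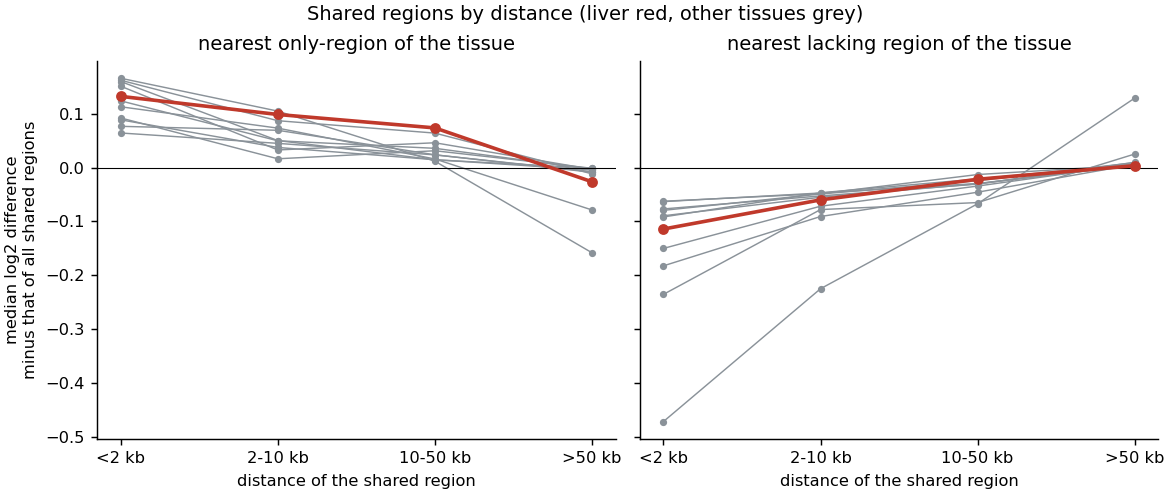
Median log2 difference of shared regions minus that of all shared regions of the same tissue, by distance to the nearest region found only in that tissue (left) or lacking only in it (right), for liver (red) and the other 10 tissues (grey). Liver falls from 0.13 to −0.03 with distance on the left and rises from −0.11 to about 0 on the right.

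Liver-only regions were spread unevenly over the chromosomes. They were 2.07% of the union regions of chromosome 9 and 1.84% of those of chromosome 20, followed by 1.44% on 26, 1.43% on 24 and 1.41% on 5. At the other end were chromosome 31 with 0.395%, 33 with 0.395% and 29 with 0.270%. The 5 leading chromosomes, picked from these values, held 28.7% of the liver-only regions against 17.6% of all union regions. Of the regions found only in another tissue, the same 5 chromosomes held 14% (ovary) to 25.6% (lung). Of the 2-fold higher regions, which the choice did not use, they held 28.5% in liver (interval 25.9 to 31.2), 18.5% of shared regions, and 13.6% (cerebellum) to 26.1% (kidney) of the higher regions of the other tissues. Of the 2-fold lower regions in liver they held 15.7%, and of the liver-lacking ones 15.0%.

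Chromosomes with many liver-only regions also had higher liver values in shared regions. The median log2 difference ran from −0.18 on chromosome 29 and −0.16 on 36 to 0.04 on chromosome 9. It was above 0 in 2 of the 38 autosomes, chromosome 9 and, at just 8.2e-05, chromosome 5, with chromosome 20 next at −0.0027. Over the 38 autosomes it followed the percent of liver-only regions with a Pearson r of 0.88 and a Spearman rho of 0.91, and without chromosomes 9 and 20 with 0.86 and 0.90. These are descriptions of a single list, whose chromosomes share libraries, depth and scaling and differ in base composition and gene density. The same rho within the other tissues ran from −0.32 in spleen to 0.74 in cerebellum, so that the liver value was the highest of the 11. With the upper 50% of each list it was 0.73, and with equal lists 0.84.

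**Figure D5:**
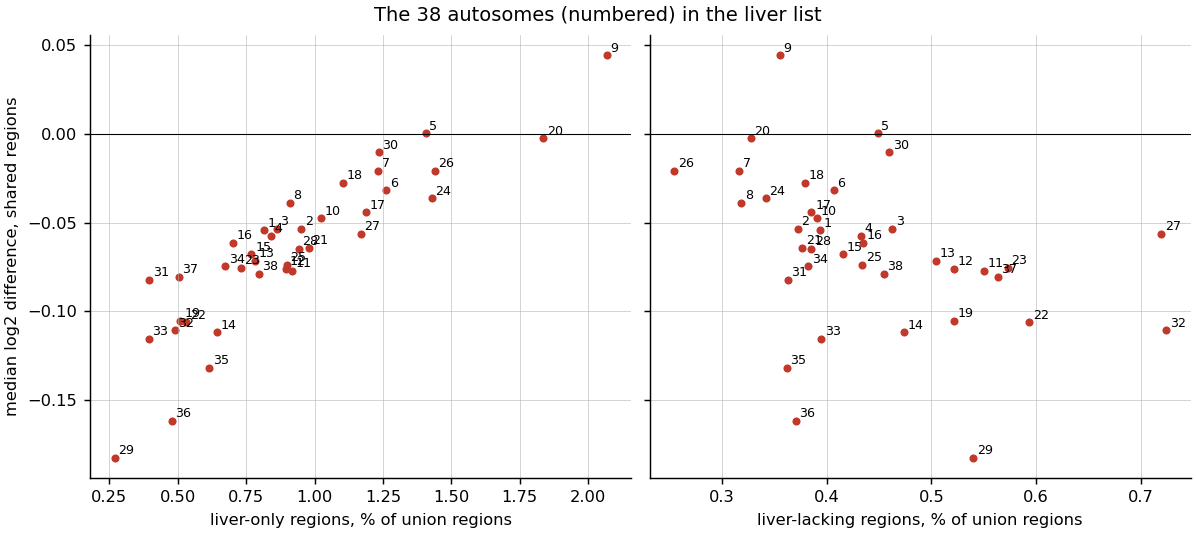
Each autosome as a numbered point, with the median log2 difference of its shared regions (liver minus the median of the other 10 tissues) against the percent of its union regions that were liver-only (left) or liver-lacking (right). Chromosomes 9 and 20 lie at the upper right of the left panel and 29 at its lower left, while the right panel shows a looser, falling relation (rho −0.46).

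The percent of 2-fold higher regions was greatest on chromosomes 9 (1.80%) and 20 (1.43%) and least on 36 (0.0630%). That of 2-fold lower regions was greatest on 33 (4.39%), 36 (4.22%) and 29 (4.04%) and least on 27 (2.02%). Chromosome 9 thus led in liver-only regions, in 2-fold higher regions and in the median log2 difference. It also had the greatest percent of lung-only (0.762%) and of spleen-only regions (1.01%). Over the autosomes, the percent of liver-only regions had a rho of 0.70 with that of lung-only and −0.78 with that of ovary-only regions. The highest chromosome percent of only-regions was 2.35 times the median one in liver, against 1.26 (cerebellum) to 2.59 (colon) in the other tissues. Liver-lacking regions followed another pattern, with the greatest share on chromosomes 32 (0.724%) and 27 (0.720%) and the least on 26 (0.254%). Their share was lower where shared regions were dense (rho −0.59 with shared regions per Mb), while that of liver-only regions was higher there (rho 0.52). Median widths by chromosome ran from 210 to 234 bp for liver-only and from 334 to 375 bp for liver-lacking regions. They varied more among shared regions, from 390 bp on chromosome 32 to 938 bp on chromosome 18. The median of 2-fold lower regions ran from 400 bp on chromosome 32 (27 regions) to 1222 bp on chromosome 19 (73 regions). That of 2-fold higher regions ran from 437.5 bp on chromosome 32, with just 2 regions, to 886 bp on chromosome 34, with 14.

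At a finer scale the pattern was similar but weaker. In 457 windows of 5 Mb with at least 50 shared regions, the percent of liver-only regions and the median log2 difference had a rho of 0.65. The window at 45 to 50 Mb of chromosome 9 had both the most liver-only regions (65, or 3.55% of its union regions) and the highest median (0.17), and it holds a cluster of liver-only and a cluster of higher regions named above. The lowest median was −0.27, at 40 to 45 Mb of chromosome 29, where none of 674 union regions was liver-only. The SD over autosomes of the chromosome medians was 0.0438 in liver, against 0.0150 in stomach to 0.0749 in cerebellum (exact permutation p = 0.364).

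Regions lower in liver were more frequent in the last 5 Mb of the autosomes, as oriented in the build, but hardly so in the first 5 Mb. The last 5 Mb of the autosomes held 22.8% of them (interval 21.4 to 24.3), against 17.9% of all shared regions and 10.2% of the 2-fold higher ones (interval 8.58 to 12.1). In the first 5 Mb the shares were 13% of the lower regions (interval 11.9 to 14.2), 12.1% of shared regions and 9.95% of the higher ones (interval 8.33 to 11.8). In the last 5 Mb ovary was higher still with 23.4% of its lower regions, and spleen was lowest with 12.6%. For higher regions only stomach (8.75%) lay below liver, and mammary gland was highest (26.5%). Liver-only and liver-lacking regions were less common in the last 5 Mb than union regions as a whole (9.22% and 9.51% against 13%).

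Counted by bases and not by regions, 2.06 Mb were covered in liver alone and 0.994 Mb in all tissues but liver, out of 275.109 Mb covered in any tissue and 89.6 Mb in all 11. Liver-only regions made up 1092 kb of the first, and the rest lay in regions that other tissues shared. Long stretches were few. In liver alone, 132 stretches reached 500 bp and 10 reached 1000 bp. The longest, chr18:46302176-46305195, had 3020 bp, the longest such stretch of any tissue. It lay in a region of 3497 bp that 3 tissues shared, with a liver relative fold of 1.16 against at most 0.690 in the others. The second, chr11:65069497-65071689 with 2193 bp, was a liver-only region as a whole (relative fold 1.22). Of stretches covered in all tissues but liver, 9 reached 500 bp and none 1000 bp. The longest, chr34:11412314-11413181 with 868 bp, lay in a shared region in which liver stood at 0.884 and the others at 1.54 to 3.79, and the liver peak covered 38.3% of that region against a median of 96.5%.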

How the data were processed

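DNA was captured with a methyl-CpG-binding domain kit and sequenced, per the labels' protocols. The submitters' processing notes name the build CanFam3.1, and the aligner, peak caller and filters are not given in the sources used here, nor how the 2 MBD libraries of a tissue were combined. The 11 deposited peak lists have no header, and the narrow-peak layout was taken to name their columns. The fold of a peak (column 7) is a ratio taken as deposited by the authors, and the control it refers to is not stated. The −log10 p-value was likewise deposited by the authors. The deposited score column and the summit offset (another deposited column) were not analysed. Folds describe single peaks and were compared between lists only after division by the list median.

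Peaks on autosomes 1 to 38 were joined into union regions wherever they overlapped, and 1 base of overlap made a tissue present. The 12408 liver peaks on X were not analysed. Relative folds, log2 differences (called past 2-fold) and clusters (at least 3 regions, gaps up to 10 kb) were computed in Python 3.11.15 with numpy 2.4.6, pandas 2.3.3, scipy 1.17.1 and matplotlib 3.10.9, by programs tested on simulated lists. Tests were exact two-sided permutation tests over the 11 tissues on the distance of each from the median of the other 10, with Benjamini-Hochberg adjustment over 9 tests. The regions named are the 8 with the highest relative fold (liver-only), the highest median of the others (liver-lacking) and the lowest and highest log2 difference (shared), and the up to 5 clusters with most regions of each class, of which some are given. The regions, lists and tests were chosen with earlier results of these data known. Alternatives were other rules for presence, list size, scaling, threshold and cluster gap, and leaving out each other tissue in turn. The planned share of liver-lacking regions in hepatocyte genes was not computed, since no annotation on CanFam3.1 was used here.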

Additional observations from a re-analysis of the deposited data

How the results depend on the processing

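Each value comes from a single list per tissue, so the spread between animals is unknown, and so is the read depth. No paired analysis was possible because both MBD libraries of a tissue share 1 list. The planned test on hepatocyte genes and its alternatives were not run. Liver-only regions numbered 1760 at least 1 kb and 281 at least 5 kb from other peaks. Liver-lacking regions numbered 1206 with the upper 50% of each list by fold and 642 where the median of the others was at least 1. The 2-fold lower regions numbered 1562 with the upper 50% of each list, 15581 past 1.5-fold and 194 past 3-fold. The 2-fold higher regions numbered 480 with at least 50% of a region covered, 36 with the upper 50% of each list, 319 with equal lists, 9396 past 1.5-fold and 9 past 3-fold. Leaving out each other tissue in turn gave 1165 to 1734 of them, with the highest without cerebellum. The median log2 difference was −0.17 with the upper 50% of each list and −0.14 with equal lists, and on the scale of percentile ranks within a list it was positive, at 0.269 percentile points. The percent of liver-lacking regions in clusters moved to above the median of the other tissues with at least 50% covered (0.599), with equal lists (0.431) and without lung, mammary gland or pancreas (range 0.302 to 0.899 over the tissues left out), with exact permutation p from 0.909 to 1 in these 5 settings. Across autosomes, rho was 0.73 with the upper 50% of each list, 0.84 with equal lists and 0.88 to 0.93 without each tissue.

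Restrictions to fewer lists were chosen after seeing the data. With fewer lists to differ from, they give more liver-only and liver-lacking regions by construction. With the 5 lists of the same animals and input, 11399 regions were liver-only, 6876 liver-lacking and 2398 2-fold higher. With the 6 lists whose shortest peak is under 200 bp, the numbers were 15858, 4339 and 3579, and the median width of liver-only regions, 228 bp, lay above that of the other tissues. In all other alternatives run, counts stayed within 1.5 times the reported ones. Tested percents and widths otherwise kept their side of the other tissues, but not their size. The percent in clusters ran from 3.03 to 24.8 for liver-only and from 0 to 2.72 for liver-lacking regions, and the median widths from 219 to 308 bp and from 295 to 731 bp. The cause of these changes was otherwise not tested.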
